A study of Sus scrofa with 12 samples.

Results

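Chromatin loops called at the same pair of anchors in all 4 H3K27ac loop lists of pig skeletal muscle were examined. A loop joins 2 bins of 5 kb, its anchors, and the shared loops were selected on the calls themselves: a loop was shared when both anchors were identical in the 4 lists. This gave 4632 shared loops of 122406 distinct loops, or 3.78% of all loops called in any library. A further 9263 loops were called in exactly 3 libraries, 23896 in 2 and 84615 in 1 library only. The loops of 1 library served as the comparison throughout.

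The tissue was longissimus muscle of 2-week-old male piglets of 2 breeds, Large White (LW), a commercial lean pig, and Meishan (MS), a Chinese local pig. H3K27ac BL-HiChIP, which captures ligated pairs of DNA fragments from chromatin carrying this histone mark, was made in 2 libraries of each breed. GRID-seq, which ligates chromatin-bound RNA to nearby DNA, gave 2 lists of RNAs and the DNA they contacted for each breed. The animals were not otherwise treated, and the study's methods speak of 2 male piglets, which may mean 1 animal of each breed or 2, so breed and animal may not be told apart and the spread between libraries may be technical. By the study's methods, loops ran from an H3K27ac peak to any other bin, so each loop should carry the mark at 1 anchor at least.

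Acetylation of histone H3 at lysine 27 marks active promoters and enhancers, and loops between such sites bring an enhancer close to the promoter it can act on. In skeletal muscle, H3K27ac lies at genes of the contractile apparatus and at the transcription factors that maintain muscle identity. RNA that stays bound to chromatin is mostly found close to its own gene, and a few abundant RNAs are also found on other chromosomes.

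The loop lists of replicates 1 and 2 held 57028 and 43282 loops for LW and 45061 and 33353 loops for MS. Shared loops made up 8.12% and 10.7% of the LW lists and 10.3% and 13.9% of the MS lists, and thus the largest share of the shortest list. Loops of a single library made up 56.5%, 41.7%, 51.0% and 34.1% of the same lists. Of the muscle fibre markers, 8 of 11 (ACTA1, MYH1, MYH2, MYLPF, TNNT3, TTN, NEB and ATP2A1) had a shared loop at a gene end. This held for 1 of 5 adipocyte, 2 of 5 endothelial and 2 of 5 fibroblast markers, and for 0 of 5 immune markers and 0 of 8 genes of brain or liver, where 13.6% of all protein-coding genes had one. The GRID-seq lists held 519 to 681 RNAs with 7172517 to 9943666 RNA reads in all, and 737738 to 981142 pairs of an RNA and a 1-kb bin.

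Loop strength was read as −log10 of the false discovery rate (FDR) of each call, which starts at 2 in these lists. The calls themselves chose the loops, so strength is a description and was not tested. Shared loops had a median strength of 8.54 and 10.0 in LW and of 6.94 and 8.63 in MS. Loops of 1 library had medians of 3.21, 3.21, 3.05 and 3.24 in the same libraries. Shared loops were 47.2% and 58.4% of the strongest 1% of the LW lists and 51.9% and 60.8% of the strongest 1% of the MS lists. They were also found among the weakest calls, since 2.36% to 5.91% of the weaker 50% of a list was shared. In all 4 libraries at once, 2095 shared loops reached a strength of 5, 929 reached 10 and 44 reached 50. At the other end, 1238 had a strength under 3 in at least 1 library.

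The limit that a loop had to pass was the presence of a call in the last library. The shared loop nearest this limit joined a pair of bins within SLC35D1 (chromosome 6, 145575001 to 145580000 and 145590001 to 145595000) and had strengths of 2.00 and 7.16 in LW versus 2.27 and 3.97 in MS. The lowest of the 4 values had a median of 4.56 over shared loops, and the lowest of the 3 values had a median of 3.47 over loops called in exactly 3 libraries. Of those 9263 loops just outside the limit, 2364 lacked a call in replicate 1 and 1728 in replicate 2 of LW, and 2947 and 2224 lacked one in replicates 1 and 2 of MS. MS replicate 1 was also the weakest library for 1822 of the 4632 shared loops.

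The 10 shared loops with the highest strength in their weakest library are given first (gene positions here are those of RefSeq on the pig build Sscrofa11.1). The strongest joined HOXD8, a homeobox gene of the body axis (chromosome 15, 81930001 to 81935000), to a bin between genes 495 kb away (82425001 to 82430000), with strengths of 313 and 279 in LW versus 230 and 205 in MS. Both LW libraries were above both MS libraries at this loop. The next joined DDIT4, an inhibitor of mTOR signalling (chromosome 14, 75115001 to 75120000), to DNAJB12, a co-chaperone of the endoplasmic reticulum (75170001 to 75175000), 55 kb away. In the replicate 1 libraries its strength was 146 (LW) and 180 (MS), and its FDR was listed at 0 in replicate 2 of both breeds. Replicate 2 was thus the higher library of both breeds at this loop, and the breeds overlapped.

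The third loop, of 85 kb, joined a bin within ATP6V0A1, a subunit of the vacuolar proton pump, to a bin within CAVIN1, a coat protein of caveolae, with 143 and 235 in LW versus 159 and 273 in MS. The fourth spanned 1135 kb, from within the transcriptional repressor gene BCL6 (chromosome 13, 125395001 to 125400000) to an end of TPRG1 (126530001 to 126535000), with 113 and 229 in LW versus 112 and 216 in MS. A loop of 165 kb ended at KLF10, a Kruppel-like transcription factor, with 142 and 151 in LW versus 94.2 and 121 in MS. Of these 3 loops, the KLF10 loop had both LW libraries above both MS libraries, and in the other two the breeds overlapped.

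A loop of 30 kb within PXN, which encodes the focal adhesion protein paxillin, had 109 and 118 in LW versus 93.5 and 94.2 in MS. A loop of 35 kb joined LSM4, a component of the splicing machinery, to JUND, a Jun-family transcription factor, with 120 and 184 in LW versus 88.6 and 156 in MS. A loop of 290 kb ended within 1 kb of IRF2BP2, a transcriptional corepressor, with 86.6 and 167 in LW versus 104 and 175 in MS. The remaining loops of the 10 were at WFIKKN2, a secreted binder of myostatin (105 kb), with 94.0 and 162 in LW versus 85.3 and 203 in MS, and from HNRNPU, an RNA-binding protein of the nucleus, to EFCAB2 (60 kb), with 84.0 and 131 in LW versus 87.7 and 97.9 in MS. In 9 of the 10 loops, all but that of HOXD8, replicate 2 was the higher library of both breeds, as the plot of the strongest loops shows. Besides the HOXD8 and KLF10 loops, that of PXN had both LW libraries above both MS libraries.

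**Figure D1:**
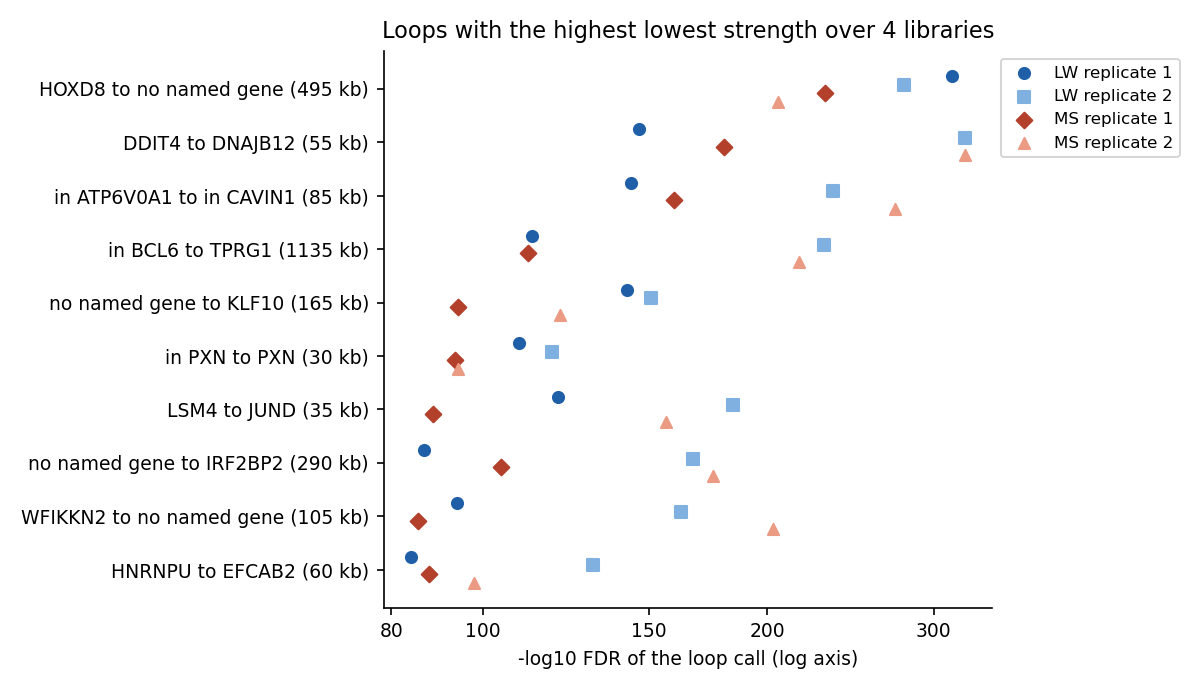
Strength (−log10 FDR, log axis) of the 10 shared loops whose weakest library was highest, with 1 point for each of the 4 H3K27ac BL-HiChIP libraries. The HOXD8 loop lay between 205 and 313, and the DDIT4 loop, whose FDR was listed at 0 in replicate 2 of both breeds, is drawn there at 323, the largest value that the number format allows.

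The replicate number separated the strengths of shared loops at least as often as the breed did. Both replicate 2 libraries were above both replicate 1 libraries in 1645 shared loops (35.5%), and the opposite held in 626 (13.5%). Both LW libraries were above both MS libraries in 1056 shared loops (22.8%), where this held for 6.9% of all loops, and both MS libraries were above both LW libraries in 435 (9.39%), against 3.56% of all loops. The shares over all loops include loops left uncalled in several libraries, and so the shares of shared and of all loops are not alike in kind. Over the 4632 shared loops, Spearman's rho of strength was 0.652 between the replicate 1 libraries of the breeds and 0.715 between the replicate 2 libraries. It was 0.596 between the LW libraries and 0.607 between the MS libraries. These correlations are across loops, which share libraries and depth, and are given as a description. The part of sequencing depth in this pattern was not tested.

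Shared loops were shorter than loops of 1 library. The median distance between anchor midpoints was 40 kb, with quartiles of 5 and 105 kb, against 60 kb over loops of 1 library with 60 and 50 kb in the LW lists and 65 and 45 kb in the MS lists. Loops of 2 and of 3 libraries had the same median of 40 kb, so the shorter distance was not particular to loops of all 4. The difference lay mainly in loops between neighbouring bins, which were 25.6% of shared loops (1184 loops) and 12.4%, 15.2%, 9.51% and 17.3% of the loops of 1 library in LW replicates 1 and 2 and the MS pair. They were 22.2% of loops of 3 libraries and 22.4% of loops of 2. Without neighbouring bins the medians were 65 kb for shared loops and 60 to 75 kb for the lists of 1 library. Loops of 250 kb or more were 7.49% of shared loops and 10.8% to 12.1% of the loops of 1 library. At an FDR of 0.001 or less in each library the difference in median fell from 20 to 10 kb. Distance was compared without a test, since loops are not replicates.

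**Figure D2:**
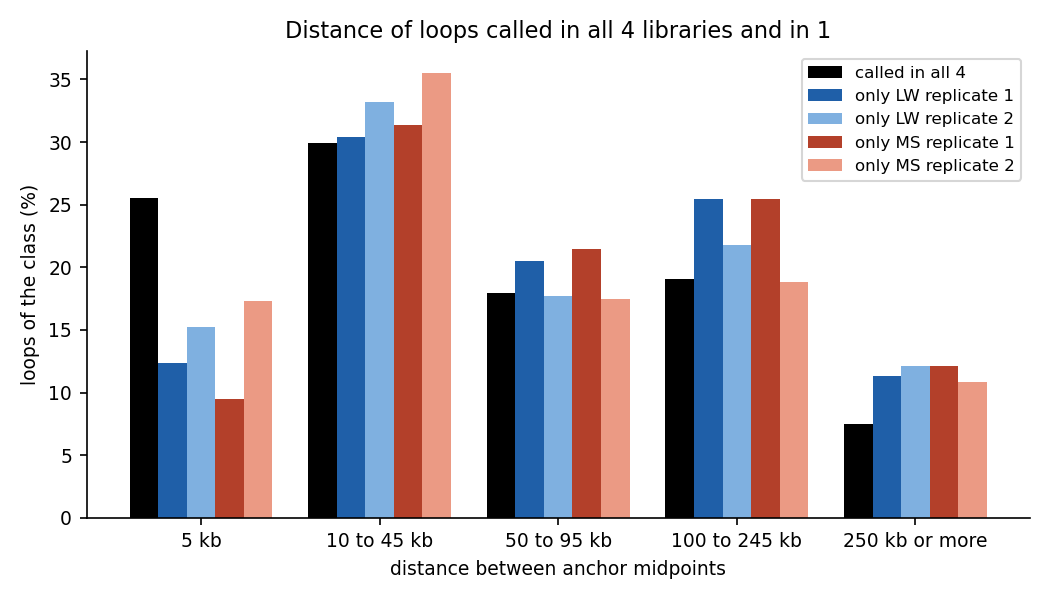
Share of loops (%) in 5 classes of distance between anchor midpoints, for the 4632 loops called in all 4 libraries (black) and the loops called in only 1 library (4 colours). Neighbouring bins (5 kb) held 25.6% of the shared loops and 9.51% to 17.3% of the others.

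Only 5 shared loops spanned 1 Mb or more. The longest joined ADAMTS1, a secreted metalloprotease (chromosome 13, 190285001 to 190290000), to a bin between genes 1465 kb away, with strengths of 11.4 and 6.27 in LW versus 7.13 and 8.45 in MS. A loop of 1345 kb began within PLPP3, a lipid phosphatase (6.96 and 8.90 in LW, 3.23 and 5.04 in MS), and one of 1235 kb joined PACSIN3, an endocytosis adaptor, to the clock repressor CRY2 (2.44 and 11.6 in LW, 3.77 and 4.70 in MS). The BCL6 loop was the fourth, and the last ran 1075 kb from HOXD8 to a bin within NFE2L2, an antioxidant response factor (7.68 and 8.62 in LW, 2.29 and 4.77 in MS). At PLPP3 and at the NFE2L2 loop both LW libraries were above both MS libraries, and at the other three the breeds overlapped.

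A few anchors gathered many shared loops. The 4632 loops used 6917 distinct anchors, 9.69% of the 71411 anchors of all loops, and 5390 of these had 1 shared loop, 1026 had 2 and 501 had 3 or more. Linked through common anchors, the loops fell into 2527 separate networks, of which 1742 were a single loop. The largest network held 22 anchors and 37 loops within 56150001 to 56650000 of chromosome 14, around IRF2BP2. The anchor at IRF2BP2 (56540001 to 56545000) had 11 shared loops of 25 to 385 kb, more than any other anchor, with summed strengths of 312 and 595 in LW versus 360 and 641 in MS. An anchor inside a gene 355 kb away (56185001 to 56190000) had 10 shared loops.

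The other anchors with most shared loops follow. An anchor on chromosome 14 (121250001 to 121255000) had 9 shared loops, some ending at BBIP1, a subunit of the ciliary BBSome, and at SHOC2, a scaffold of Ras signalling. The bin at the far end of the HOXD8 loop had 8, which also reached HOXD3. A bin on chromosome 6 (152830001 to 152835000) had 8 of 95 to 855 kb, reaching the transcription factor gene JUN. A bin on chromosome 1 (4245001 to 4250000) had 8 reaching QKI, a splicing regulator of muscle and glia. The anchor of DDIT4L, a paralogue of DDIT4 (chromosome 8, 120370001 to 120375000), had 8 of 5 to 90 kb. The BCL6 anchor had 7, and a bin between genes on chromosome 1 (190035001 to 190040000) had 7 of 50 to 420 kb some of which reached SIX4, a homeobox factor of muscle development. An anchor on chromosome 1 (109010001 to 109015000) with 8 loops completed the 10. An anchor of a shared loop had a median of 7 loops of any library, where other anchors had 2.

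Genes were at the anchors of shared loops more often than at those of loops of 1 library. A gene was counted at an anchor when either of its ends lay within 1 kb of the bin, since the reference gave no strand. A gene end was at 1 anchor or both in 59.3% of shared loops and in 46.6% of loops of 1 library, and at both anchors in 20.7% against 12.3%. Loops of 3 and of 2 libraries lay between, with a gene end at 1 anchor at least in 56.7% and 52.0%. The difference of 12.7 percentage points became 14.4 points with distances weighted alike. Of the anchors of shared loops counted per loop, 40.0% held a gene end, 41.8% lay inside a gene and 18.2% lay between genes. For loops of 1 library these shares were 29.5%, 50.1% and 20.4%. Shares over loops are a description, without a test.

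Most gene-to-gene contacts joined different genes, which was not particular to shared loops. Of 10415 loops of 1 library with gene ends at both anchors, 2410 held the same gene at both, and 272 of 960 such shared loops did. Of the shared loops, 688 had ends of different genes at their anchors, both protein-coding in 544, and 272 joined both ends of 1 gene, of which 190 were between neighbouring bins. Among the first kind, a loop of 15 kb joined MCL1, a survival factor of the BCL2 family, to ADAMTSL4, a matrix protein, with strengths of 72.1 and 128 in LW versus 73.4 and 203 in MS. A loop of 45 kb on chromosome 2 joined the bins of TNNI2 and TNNT3, the fast-fibre troponin I and troponin T genes, with 45.2 and 154 in LW versus 41.6 and 117 in MS. A loop of 245 kb reached VEGFA, the endothelial growth factor, with 39.2 and 76.6 in LW versus 46.1 and 93.6 in MS. In all 3 loops the breeds overlapped. Only 13 shared loops joined both ends of a gene over 50 kb or more, the strongest at the chromatin remodeller gene ARID1A (80 kb, 73.5 and 60.3 in LW, 76.1 and 79.8 in MS). These examples were chosen after their values were seen.

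Where only 1 anchor held a gene end, the loop passed over a nearer gene in 50.6% of 1786 shared loops and in 62.9% of 29031 loops of 1 library. Within classes of distance the shares were 40.6% against 43.2% at 10 to 45 kb, 62.1% against 68.7% at 50 to 95 kb, 73.4% against 79.9% at 100 to 245 kb and 91.8% against 91.7% at 250 kb or more. The shared loops were thus below the others up to 245 kb and level with them beyond.

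A shared loop was at an end of 3290 of 28210 genes on the chromosomes (11.7%), and of 13.6% of the 19550 protein-coding genes. Of the genes with a loop of any library at an end, 21.3% had a shared one. Most had 1 shared loop (2386 genes), and 51 had 5 or more. The gene lists below were set beside these shares as counts, with no test, and a gene with a shared loop had a median of 9 loops of any library at its ends, where the median over genes with any loop was 4.

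Contractile and calcium-handling genes had the highest shares of all lists. They also had many loops of any library, with medians of 13 and 11.5 per gene. The medians were 12 for clock genes, 11.5 for growth and atrophy genes, 3 for ribosomal proteins and 2 for adipocyte and endothelial markers. The part of these numbers in the shares was not tested. In the sarcomere and Z-disc list 33 of 53 genes (62.3%) had a shared loop, among them MYH1, MYH2 and MYH7 (myosin heavy chains), ACTA1 (skeletal actin), TTN, NEB and DES. All 53 had a loop of some library. PDLIM5, a Z-disc adaptor, had the highest lowest value, with 5 shared loops and summed strengths of 100 and 118 in LW versus 96.5 and 175 in MS. TNNI2 followed with 4 loops, 92.0 and 245 in LW versus 72.4 and 197 in MS. PDLIM3 had 4 loops (104 and 128 in LW, 66.3 and 91.1 in MS), and TNNT3 had 5 (65.8 and 231 in LW, 69.4 and 190 in MS). Only at PDLIM3 did both LW libraries exceed both MS libraries.

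In the calcium-handling list 14 of 24 genes (58.3%) had a shared loop, including the calcium pumps ATP2A1 and ATP2A2, the calsequestrins CASQ1 and CASQ2 and the calmodulins CALM2 and CALM3. SLN, which encodes sarcolipin, an inhibitor of the calcium pump, had the strongest, 2 loops of 5 and 15 kb with 86.9 and 199 in LW versus 80.2 and 203 in MS. CALM2 had 43.9 and 82.2 in LW versus 52.6 and 77.4 in MS over 4 loops. CASQ1 had 37.7 and 155 in LW versus 32.7 and 144 in MS over 3 loops. None of these 3 genes separated the breeds.

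Transcription factors, clock genes and growth regulators came next. Of the muscle transcription factors, 17 of 37 (45.9%) had a shared loop, among them MYOD1 and MYF6, the FOXO factors FOXO1, FOXO3 and FOXO4, and NFATC1 to NFATC4, the calcium-responsive NFAT factors. VGLL2, a cofactor of TEAD in muscle, had 5 shared loops of 45 to 165 kb with 123 and 269 in LW versus 113 and 251 in MS. SIX4 had 6 (132 and 307 in LW, 102 and 179 in MS) and FOXO3 had 3 (51.6 and 126 in LW, 48.2 and 94.8 in MS). The breeds overlapped at these 3 genes, and replicate 2 was the higher library in each breed.

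Of the circadian clock genes 9 of 20 (45.0%) had a shared loop. BHLHE40, a clock repressor, had a loop of 245 kb with 81.9 and 235 in LW versus 61.4 and 148 in MS. NR1D1, the nuclear receptor that represses BMAL1, had a loop of 10 kb with 62.4 and 99.4 in LW versus 59.6 and 107 in MS. CIART had 38.9 and 84.0 in LW versus 33.7 and 48.0 in MS, and NFIL3 had 23.9 and 22.1 in LW versus 10.8 and 7.90 in MS over 2 loops. Only NFIL3 had both LW libraries above both MS libraries. PER2, a core clock gene named by the study for its loops, had a shared loop between neighbouring bins with 7.96 and 4.57 in LW versus 5.88 and 8.39 in MS.

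Of the growth and atrophy genes 14 of 32 (43.8%) had a shared loop, including MSTN (myostatin), its antagonist FST, and TRIM63, a ubiquitin ligase of muscle atrophy. DDIT4 led with 3 loops (169 and 358 in LW, 194 and 355 in MS), of which the DNAJB12 loop above held the most. IRS1, the adaptor of the insulin receptor, had 61.5 and 235 in LW versus 47.7 and 122 in MS over 3 loops of 175 to 455 kb. IGF1R, the receptor of insulin-like growth factor, had 51.5 and 35.5 in LW versus 58.4 and 48.4 in MS, and BMPR1A had 23.4 and 72.7 in LW versus 26.99 and 57.3 in MS. The libraries of the breeds overlapped at each of these genes.

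The lists of energy metabolism had lower shares than these, still above the 13.6% of all protein-coding genes. In the glycolysis and glycogen list the count was 11 of 33 (33.3%). PPP1R3C, a subunit that targets protein phosphatase to glycogen, had 5 loops with 84.1 and 184 in LW versus 80.8 and 206 in MS. PYGM, the muscle glycogen phosphorylase, had 45.7 and 94.9 in LW versus 40.4 and 54.4 in MS. PKM (pyruvate kinase) had 26.2 and 34.1 in LW versus 15.7 and 23.1 in MS, and FBP2, the muscle fructose bisphosphatase, had 28.8 and 12.0 in LW versus 23.4 and 21.0 in MS. PKM had both LW libraries above both MS libraries and the other three did not.

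In the list of AMPK and energy regulators 6 of 20 genes (30.0%) had a shared loop, each a single one. PPARD, a receptor that promotes fat oxidation, had 5.69 and 3.57 in LW versus 11.3 and 7.20 in MS, where both MS libraries were above both LW libraries. CKMT2, the mitochondrial creatine kinase of muscle, had 3.49 and 8.39 in LW versus 4.01 and 15.9 in MS over a loop of 555 kb. PRKAA2, a catalytic subunit of AMPK, had 3.10 and 10.3 in LW versus 3.17 and 8.60 in MS. In contrast, both LW libraries were above both MS libraries at the single shared loop of PRKAG3, the muscle-specific regulatory subunit of AMPK.

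The share of the ribosomal protein list was close to that of all protein-coding genes, and that of the membrane list lay between. Of the membrane, neuromuscular junction and dystrophin complex genes 7 of 33 (21.2%) had a shared loop. UTRN (utrophin) had 28.8 and 34.8 in LW versus 19.9 and 30.6 in MS over 3 loops, and KCNJ11, a subunit of the ATP-sensitive potassium channel, had 13.7 and 35.8 in LW versus 16.1 and 16.0 in MS. POPDC3 had 19.9 and 24.5 in LW versus 12.7 and 32.0 in MS, and CHRNB1, a subunit of the acetylcholine receptor, had 28.5 and 5.36 in LW versus 16.4 and 5.16 in MS. None of the 4 separated the breeds. Of the cytosolic ribosomal protein genes, which every cell uses, 11 of 74 (14.9%) had a shared loop, led by RPL27A with 29.3 and 19.95 in LW versus 29.1 and 23.1 in MS. RPL3 (34.3 and 22.0 in LW, 18.6 and 15.4 in MS), RPL24 (13.6 and 19.3 in LW, 13.8 and 20.8 in MS) and RPL4 (25.6 and 12.3 in LW, 17.0 and 14.3 in MS) followed.

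Markers of some other cells of the tissue also had shared loops. The shares were 21.4% for adipocyte, 30.8% for endothelial and 16.7% for fibroblast markers, against 13.6% of all protein-coding genes. Among adipocyte markers the count was 3 of 14: LPL, the lipoprotein lipase that muscle fibres also express, with 23.3 and 11.8 in LW versus 11.7 and 25.8 in MS, CIDEC, and CD36, the fatty acid transporter. Among endothelial markers it was 4 of 13 (CLDN5, CDH5, ENG and PECAM1), with CLDN5, a tight junction protein, highest at 13.9 and 26.8 in LW versus 23.5 and 31.1 in MS. Among fibroblast markers it was 3 of 18, with the collagen genes COL1A2 (66.3 and 85.9 in LW, 33.5 and 45.8 in MS) and COL1A1 (38.8 and 39.0 in LW, 21.3 and 26.7 in MS) and with MEOX2. At both collagen genes both LW libraries were above both MS libraries. Immune markers (0 of 15), neural and liver genes (0 of 20) and olfactory receptors and keratins (0 of 10) had no shared loop, and 7, 5 and 2 of them had a loop of some library. In whole muscle, fewer cells of a type and less signal per cell cannot be told apart.

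**Figure D3:**
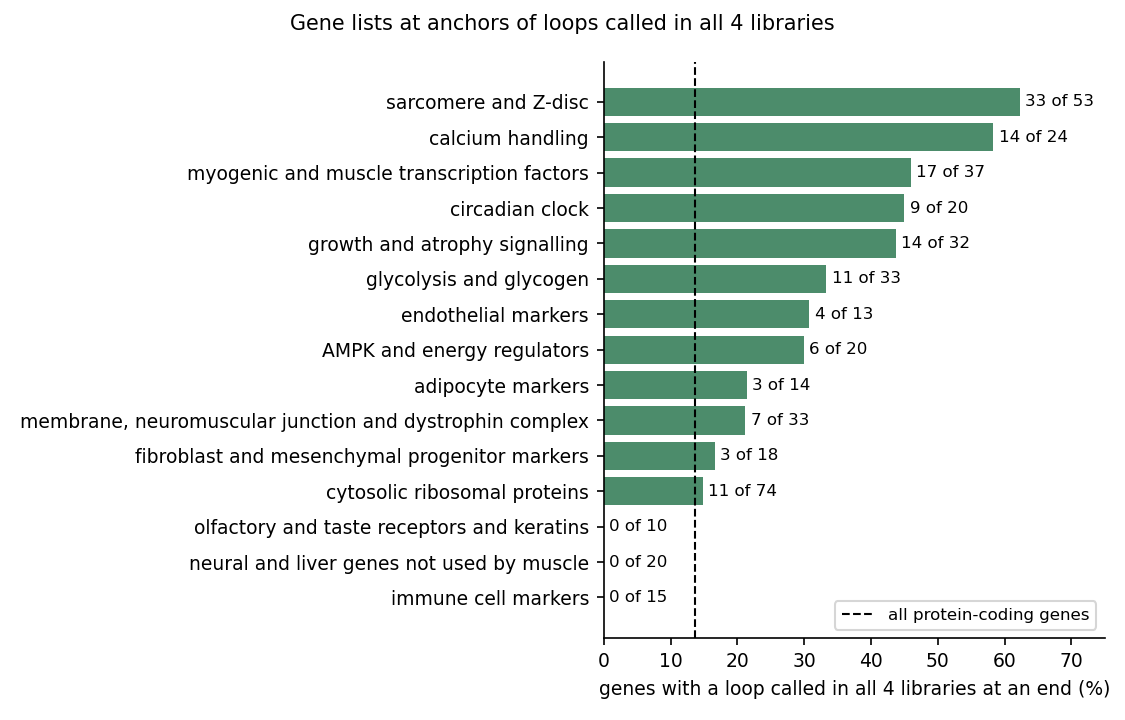
Share of genes (%) of each list with a loop called in all 4 libraries at an end, with counts at the bars. The dashed line marks 13.6%, the share of all protein-coding genes. Sarcomere and Z-disc genes reached 62.3%, and 3 lists of genes of other tissues or cells were at 0.

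Of the genes that the study names for their loops, DES also had shared loops, 2 of 10 and 55 kb with 23.9 and 60.5 in LW versus 33.6 and 106 in MS. DES encodes desmin, the intermediate filament of muscle. TAB1, an activator of a stress kinase, had 1 in which the breeds overlapped. KCNS3, DYSF, LMOD2, POPDC2, LRRFIP1, COL6A3, HEXIM1, HEXIM2, GMPPA and BCS1L had loops (2 to 27 each) of which none was called in all 4 libraries.

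The breeds were compared at the shared loops with limma on log2(strength + 1), fitted on all 122406 loops with uncalled loops at 0. No shared loop passed an adjusted p of 0.05 (0 of 4632, lowest adjusted p = 0.655), and no loop of any kind did, so the share over all loops was 0.0%. At an unadjusted p under 0.05, 1 shared loop was higher in MS, where 0.906% of all loops were, and 0 were higher in LW, where 1.54% of all loops were. Since a shared loop is called in every library, none can show the contrast of called against uncalled, set to 0, that other loops can, so these low counts follow from the choice of the loops and say nothing of their breed differences. The median log2 difference of LW minus MS was 0.16 over shared loops and 0.79 over all loops. The value over all loops takes uncalled loops as 0, and the LW list was the longer at each replicate number. The medians are thus not alike in kind. Fitted on the shared loops alone, 248 of 4632 had an unadjusted p under 0.05, about as many as this cutoff passes where no loop differs. None passed the adjusted threshold. With 1 library left out of the fit, some shared loops passed. Such a fit leaves 1 library of a breed, assumed to vary like the pair of the other breed. Its counts are listed only among the processing alternatives at the end and are not read as breed differences. Why these loops passed was not tested.

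The shared loops that leaned most to either breed are given as values. Toward LW, a loop of 235 kb within MAF, a transcription factor gene (chromosome 6, 8530001 to 8535000 and 8765001 to 8770000), had strengths of 28.7 and 54.7 in LW versus 7.20 and 4.55 in MS (log2 difference 2.53, SE 1.28, adjusted p = 0.655 by limma). A loop of 120 kb from within PITPNB, a lipid transfer protein gene, to within TTC28 had 58.9 and 27.9 in LW versus 11.4 and 3.20 in MS. A loop of 175 kb within SLC4A4, a bicarbonate cotransporter gene, had 17.8 and 26.6 in LW versus 3.54 and 4.01 in MS. The other two were a loop of 35 kb at MTDH (10.8 and 24.3 in LW, 2.05 and 3.61 in MS) and one of 120 kb between genes on chromosome 4 (48.7 and 11.6 in LW, 6.50 and 3.10 in MS). By the rule for naming them, the libraries of the breeds do not overlap at these loops.

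Toward MS, a loop of 25 kb between genes on chromosome 4 (8630001 to 8635000 and 8655001 to 8660000) had 2.01 and 2.61 in LW versus 13.3 and 26.997 in MS, the only shared loop with an unadjusted p under 0.05 (log2 difference −2.65, SE 1.28, adjusted p = 0.655 by limma). A loop of 75 kb within KIAA1671 had 2.65 and 10.2 in LW versus 26.4 and 27.8 in MS. A loop of 40 kb within DAPK2, a death-associated kinase gene, had 2.31 and 6.38 in LW versus 13.7 and 33.6 in MS. The other two were a loop of 15 kb at TCF15, a transcription factor of the somites (4.17 and 6.52 in LW, 21.0 and 30.7 in MS), and one of 70 kb on chromosome 10 (2.90 and 3.44 in LW, 16.2 and 13.9 in MS). All 10 loops missed the adjusted threshold.

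RNA was then looked up on the anchors. GRID-seq played no part in the loop calls, so the comparison of shared loops with loops of 1 library was tested, over the 4 GRID-seq libraries. An anchor was counted as carrying an RNA when a listed 1-kb bin of the RNA fell within it. In LW, 39.3% and 53.0% of shared loops had an RNA on both anchors in replicates 1 and 2, against 32.6% and 46.5% of loops of 1 library. In MS these shares were 56.2% and 65.2% against 45.7% and 55.9%. Loops of 3 libraries had 37.4% and 50.8% in LW and 52.7% and 62.7% in MS. Loops of 2 had 36.0%, 49.8%, 51.4% and 60.8%, so both classes lay between. The difference of shared loops from loops of 1 library was 8.24 ± 1.94 percentage points (SD, n = 4 libraries), and it was positive in 4 of 4 libraries. An exact permutation test that flips the sign of each library's difference gave p = 0.13 (two-sided), the smallest that 4 libraries allow, so it could not reach 0.05. With distance and genes at the anchors weighted alike, the difference was 6.57 ± 1.53 points (exact permutation p = 0.13).

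The same RNA on both anchors was also more common. It was found in 34.2% and 45.8% of shared loops in LW versus 45.6% and 54.6% in MS, against 27.02%, 38.0%, 34.7% and 43.7% of loops of 1 library (difference 9.21 ± 1.96 points, n = 4 libraries, exact permutation p = 0.13). Without the 3 RNAs that covered most bins on other chromosomes the difference was 7.28 ± 2.05 points. With all RNAs, loops of 3 libraries had 31.8%, 43.4%, 42.0% and 50.8%. Loops of 2 had 31.0%, 42.1%, 41.3% and 49.9%, so both classes again lay between. In all 4 GRID-seq libraries 1120 shared loops (24.2%) had an RNA on both anchors. Only 130 (2.81%) had no RNA on either anchor in any library.

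RNAs of other chromosomes were on more anchors of shared loops than of loops of 1 library, and on more of either than of bins farther away. In LW, 26.9% and 37.5% of the 6917 anchors of shared loops carried such an RNA, and in MS 56.9% and 62.0%. The corresponding values over the 36317 anchors used by loops of 1 library alone were 20.2%, 27.6%, 41.3% and 47.0%. Relative to the bins 25 to 50 kb away on either side, the anchors of shared loops were higher by 11.4 ± 5.54 points (SD, n = 4 libraries) and those of loops of 1 library by 3.67 ± 2.11 points. The share was level over about 10 kb on either side of the anchor, so it did not single out the anchor bin. The difference between these excesses was 7.70 ± 3.44 points, positive in 4 of 4 libraries (exact permutation p = 0.13). The level was higher in both MS libraries than in both LW libraries, in the flanks as well as at the anchors.

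**Figure D4:**
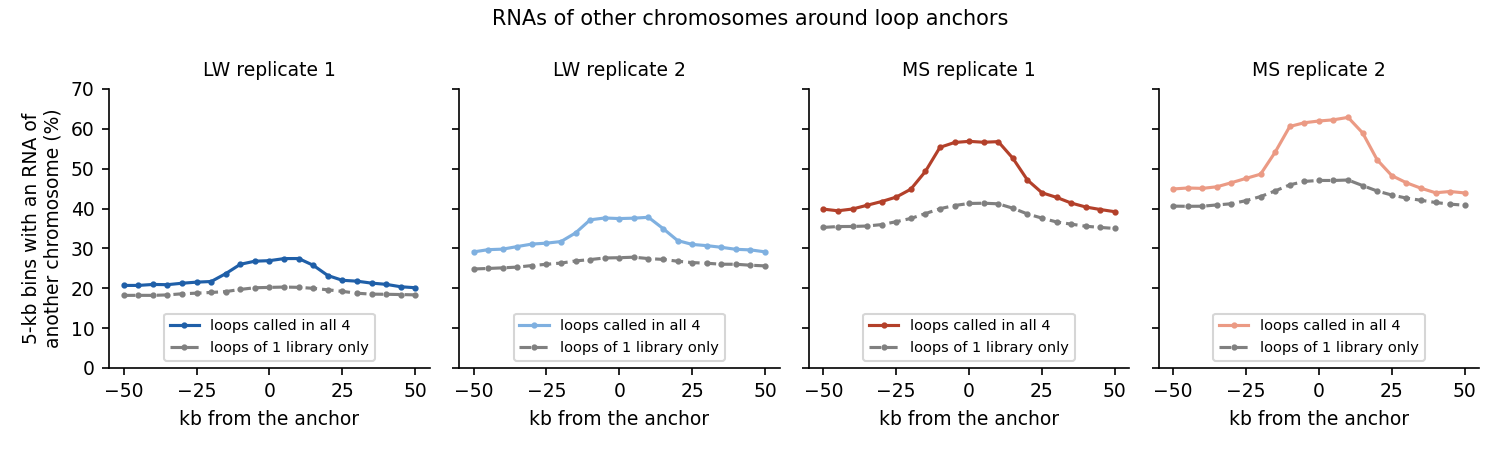
Share of 5-kb bins (%) that carried an RNA of another chromosome, by distance from the anchor (kb), in each GRID-seq library, for anchors of loops called in all 4 libraries (solid) and of loops called in 1 library only (dashed). In MS replicate 1 the share rose from 39.8% at 50 kb before the anchors of shared loops to 56.9% at the anchor, and from 35.3% to 41.3% for the others.

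The RNAs on most anchors included transcripts of sarcomere genes and of unnamed genes. An unnamed RNA gene, ENSSSCG00000048037 (chromosome 3, 53631434 to 53653180), was on 10.6% and 18.5% of the anchors of shared loops in LW versus on 29.2% and 23.1% in MS. On anchors of loops of 1 library the shares were 7.80% and 14.1% in LW and 18.5% in MS replicate 1, and the second MS library was also below its share for shared loops. TTN, the RNA of the giant sarcomere protein titin, was on 10.6% and 12.0% in LW versus 18.6% and 17.8% in MS, against 7.10%, 7.80%, 14.3% and 10.8% for loops of 1 library.

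ENSSSCG00000048856 was on 3.14% and 5.52% of these anchors in LW versus on 9.54% and 17.6% in MS, and ENSSSCG00000044834 on 3.44% and 4.41% in LW versus on 6.64% and 5.20% in MS. Counted over all other chromosomes, ENSSSCG00000044834 went the opposite way. It was listed in 223431 and 191755 bins of 1 kb in LW versus 44248 and 42885 in MS. NEB, the RNA of the thin filament protein nebulin, was on 2.86% and 3.85% in LW versus 1.01% and 2.43% in MS. MBNL1, a splicing regulator of muscle, was on 2.86% and 3.61% in LW versus 1.43% and 2.05% in MS, and ZBTB16 on 2.44% and 2.66% in LW versus 1.33% and 2.08% in MS. These last 3 RNAs were on more anchors in both LW libraries than in both MS libraries, opposite to the RNAs named before them. CMTM4 was on 0.0578% and 0.145% in LW versus 2.67% and 5.22% in MS, and RORA, a nuclear receptor of the clock, on 1.17%, 1.26%, 1.43% and 2.21%. Of these 9 RNAs, 7 were on a larger share of the anchors of shared loops than of loops of 1 library in all 4 GRID-seq libraries, CMTM4 in 3 and RORA in 2.

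RNAs listed as bound to chromatin often came from genes with a shared loop. Of the 310 named RNAs listed in all 4 GRID-seq libraries, 151 (48.7%) had a shared loop at an end of their gene, against 13.6% of protein-coding genes. By gene length, it was 47.7% of RNAs under 20 kb, 50.8% at 20 to 60 kb and 49.4% at 60 kb or more, where protein-coding genes had 12.7%, 14.1% and 15.1%. Of the single lists, 45.3% to 48.3% of the named RNAs had a shared loop. Of the 310 RNAs 95.8% had a loop of any library at an end, against 62.6% of protein-coding genes.

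Shared loops also carried the RNA of a gene at 1 anchor on the other anchor more often than loops of 1 library. Between 253 and 310 shared loops had an end of a listed RNA at 1 anchor and their far anchor more than 10 kb outside that gene. The RNA was on the far anchor in 44.3% and 53.9% of these in LW versus 43.7% and 53.2% in MS. For loops of 1 library the shares were 39.2%, 42.6%, 32.6% and 40.3%. The difference was 10.1 ± 3.43 points (SD, n = 4 libraries), positive in 4 of 4 libraries (exact permutation p = 0.13), and 8.65 points with distances weighted alike. Loops of 3 libraries had 40.3%, 50.3%, 37.1% and 45.2% and loops of 2 had 44.3%, 46.7%, 38.1% and 46.6%, so in LW replicate 1 the loops of 2 libraries were level with the shared ones. When any overlap of the gene with the anchor was counted in place of its ends, the difference was 2.31 points, and the 4 libraries did not all have the same sign (exact permutation p = 0.25).

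For loops of 50 kb or more, the RNA was not on the far anchor more often than 10 kb nearer the gene. The RNA was on the far anchor in 39.2% and 44.8% of pairs of a shared loop and an RNA in LW, and 10 kb nearer the gene in 39.8% and 47.1%. In MS it was on the far anchor in 40.0% and 48.3% and 10 kb nearer the gene in 41.0% and 50.4%. At 25 kb beyond the far anchor the shares were lower in 4 of 4 libraries, at 33.9%, 35.0%, 27.3% and 33.6%. Among pairs with a signal on the far anchor, that signal mostly exceeded the mean of the bins 10 to 25 kb nearer the gene. This held for 63.0% and 65.0% in LW and 79.3% and 74.1% in MS, against 55.2%, 57.2%, 59.3% and 60.5% for loops of 1 library. The difference was 12.3 ± 5.78 points, positive in 4 of 4 libraries (exact permutation p = 0.13). Counting only pairs with a signal there favours the far anchor in both classes. Of 197 pairs of any distance whose RNA was listed in all 4 libraries, 70 had a signal on the far anchor in all 4 and 64 in none.

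The highest far-anchor signal was that of DDIT4, on the second of the strongest loops above. Its RNA had a signal of 4623 and 5078 in LW versus 4258 and 3615 in MS on the DNAJB12 anchor, where its own anchor had 18343 and 22710 in LW versus 25811 and 22388 in MS. Over the 7 bins from 15 kb beyond its own anchor to 10 kb before the far one, called the bins between, the mean was 464 and 771 in LW versus 979 and 1197 in MS. In 4 of 4 libraries the far anchor was above every bin between. The bin at 50 kb, left out of the bins between, was higher still in LW (5002 and 5495) and in MS replicate 1 (4442). This loop and those described next were chosen for a high far-anchor signal. That choice favours a far anchor above the bins between, so the comparison is a description.

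The RNA of PPP1R3B, a glycogen-targeting subunit of protein phosphatase, had 1335 and 1657 in LW versus 1039 and 1150 in MS at 160 kb, with means of 274, 178, 83.4 and 221 over the bins between. ZFAND5, a zinc finger protein linked to protein breakdown in muscle, had 1458 and 1427 in LW versus 1348 and 1013 in MS at 100 kb, with means of 166, 325, 84.9 and 150 between. PKDCC, a secreted kinase, had 1127 and 1944 in LW versus 1178 and 1381 in MS at 180 kb, with means of 335, 11.2, 590 and 570 between. In each of these the far anchor was above the mean between in 4 of 4 libraries, and above every bin between in 3 libraries for PPP1R3B, 3 for ZFAND5 and 2 for PKDCC. The signal was not always highest at the far anchor. PPP1R3B RNA had 1741 and 1476 in MS at 170 kb, beyond it, and PKDCC RNA had 3060 in LW replicate 1 at 120 kb, before it.

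TRIM63 and GLUL did not show this. TRIM63 RNA had 1469 and 1672 in LW versus 2283 and 2151 in MS at 30 kb, on an anchor of EXTL1 and SLC30A2, and fell below the bins between in 4 of 4 libraries. GLUL, the glutamine synthetase, had 912 and 1082 in LW versus 749 and 940 in MS at 75 kb, above the mean between in 1 of 4 libraries. ENSSSCG00000035223 RNA was on 2 anchors within TTC23, at 70 kb (1127, 1214, 1284 and 1383) and 45 kb (768, 1354, 755 and 991), and was below the mean between in 4 of 4 libraries at both. Of the last pair of the 10, ENSSSCG00000043851 (30 kb; 996, 1086, 1847 and 1731) and ENSSSCG00000042203 (25 kb; 945, 1356, 1397 and 1449) were above the bins between in 4 of 4 libraries, over 2 bins and 1 bin.

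**Figure D5:**
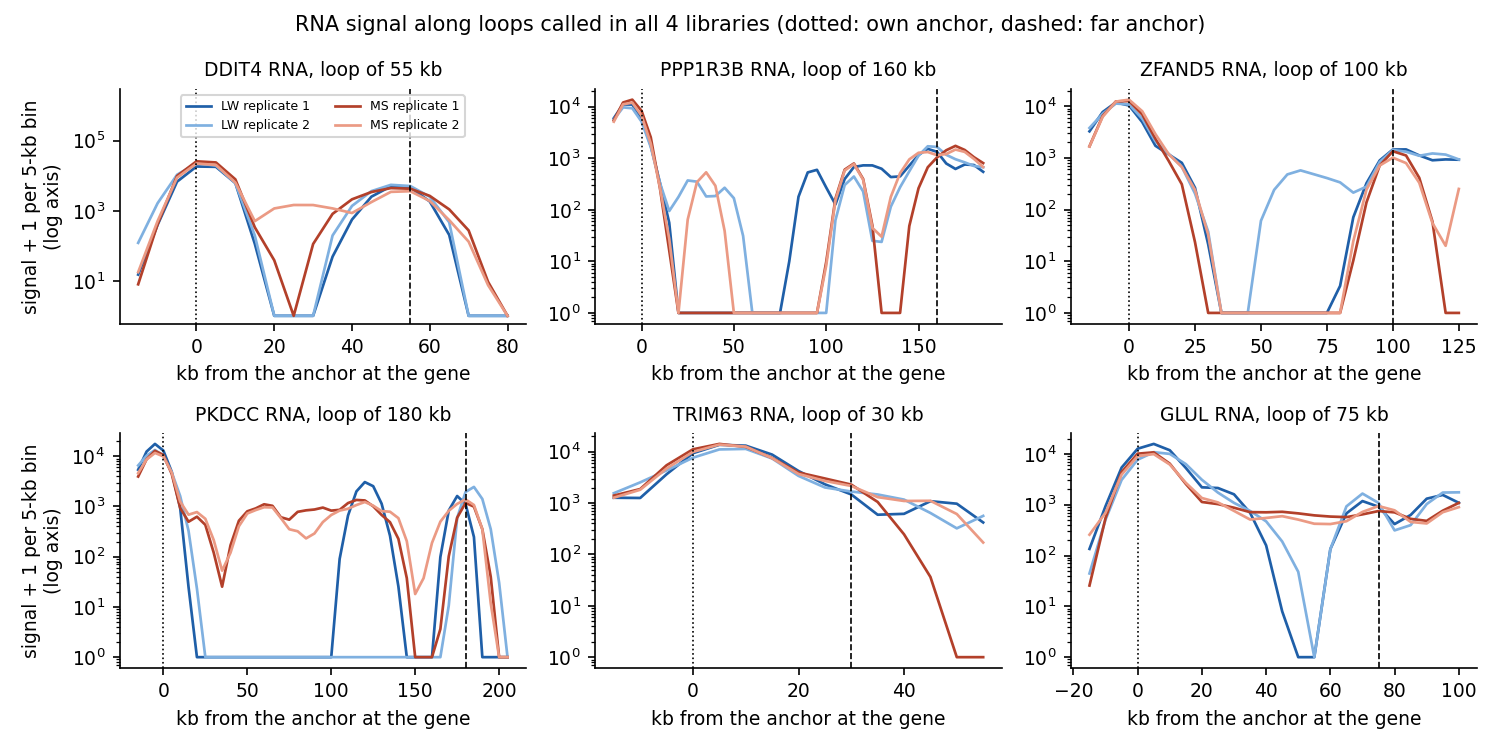
Background-corrected RNA signal plus 1 (log axis) per 5-kb bin, by distance (kb) from the anchor at the RNA's own gene toward the far anchor, in the 4 GRID-seq libraries, for 6 of the 10 loops. DDIT4 RNA falls between the anchors and returns at the far anchor at 55 kb to 3615 to 5078, and TRIM63 RNA, highest beside its own anchor, declines through the far anchor at 30 kb.

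Breed differences in RNA on the anchors were tested with limma on log2(summed signal + 1), over 61629 anchors of any loop with a signal in at least 1 library. Of the 6917 anchors of shared loops 6358 were tested, and 200 (3.15%) passed an adjusted p of 0.05, against 2.73% of all anchors tested. Of these, 129 (2.03%) were higher in MS, where 1.39% of all anchors were, and 71 (1.12%) were higher in LW, where 1.34% were. At an unadjusted p under 0.05, 373 (5.87%) were higher in LW and 781 (12.3%) in MS, against 6.23% and 9.59% of all anchors. The shares were thus close to those of all anchors, with a lean toward MS. In 158 of the 200 the leading RNA was not listed at all in either library of the other breed, and in 102 it lay on or within 10 kb of its own gene. No anchor of a shared loop was called after quantile normalization, with a pseudocount of 0.1 or with the replicate number as a block. The calls also depended on single libraries: none remained with either LW library left out, and there were more with either MS library left out. Such a fit leaves 1 library of a breed, so its counts are listed only among the processing alternatives and not read as breed differences.

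The anchors with the smallest p values toward MS were at the RNA's own gene. The anchor of CCN1, a secreted matrix protein (chromosome 4, 130395001 to 130400000; CYR61 in the gene table), had a signal of 18913 and 16897 in MS and no listed signal in either LW library, taken as 0. RHOB, a small GTPase, had 24941 and 32906 in MS and no listed signal in LW. GADD45G, a stress response gene, had 32312 and 24354 on one anchor and 16866 and 12443 on the neighbouring bin, with no listed signal in LW on either. PPP1R3C had 12950 and 18604 in MS and no listed signal in LW. All had an adjusted p of 0.0302 by limma. The summed strength of the shared loops at PPP1R3C, given above, overlapped between the breeds.

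Toward LW, FBP2 had 4202 and 3574 in LW versus 0.632 and 0.659 in MS at its own anchor (adjusted p = 0.0302 by limma), the MS values being those of another RNA, while the strength of its shared loops overlapped between the breeds. CA14, a carbonic anhydrase gene, had 26124 and 17765 in LW versus 5.24 and 6.81 in MS. An anchor within UBE2H, a ubiquitin-conjugating enzyme gene, had 1330 and 1657 in LW and no listed signal in MS. The last pair lay 15 kb apart on chromosome 11, at LOC110255782 (4526 and 5051 in LW, 0 in MS) and ADPRHL1 (9360 and 17219 in LW, 0 and 0.318 in MS), and both were led by the RNA ENSSSCG00000048674. The RNAs that led these anchors were listed in both libraries of 1 breed and in neither of the other, so the size of these differences also reflects which RNAs each list holds.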

How the data were processed

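Loops and RNA contacts were taken from the deposited lists. Per the methods, the authors mapped BL-HiChIP reads to Sscrofa11.1 and called loops from H3K27ac peaks to any bin of 5 kb with FitHiChIP; the methods also speak of merging the samples of a breed, and 1 loop list is deposited for each library. The deposited p-value column (no header, 0 to 0.01) was read as the FDR. GRID-seq lists by the authors hold the RNA read count of each RNA and a background-corrected signal per 1-kb bin, from 0.02 upward. The submitters' notes name Bowtie2 2.2.5 and SAMtools 1.9.

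Strength is −log10 FDR. Signal was summed per 5-kb bin. Genes came from a RefSeq table of Sscrofa11.1 without strand, so both ends were used, with a window of 1 kb. Breeds were compared with limma 3.58.1 (R 4.3.3, lmFit and eBayes, Benjamini-Hochberg adjustment over all loops or anchors), after quantile normalization of called loops for strength. The fitting code was also run on simulated data, with an outcome not reported here. The simulated spread was smaller than that of the loop strengths, so that run does not show which differences the loop fits could detect. The study's count model was not used, since strength is no count. Shared and single-library loops were compared with exact sign-flip tests over GRID-seq libraries. Members and gene lists were chosen with earlier results of these data known.

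Named were the 10 shared loops with the highest lowest strength, the 10 anchors with most shared loops, the 5 longest, the 5 of smallest p in each direction with breeds not overlapping, the 10 RNAs on most anchors, the 10 loops with the highest lowest far-anchor signal, up to 4 genes per list and genes the study names. A few of the items this rule names are not reported here. FDR listed at 0 was set to the smallest number the format holds. Alternatives and their effects close the document.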

Additional observations from a re-analysis of the deposited data

How the results depend on the processing

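Letting each anchor lie 1 bin away raised the number of loops found in all libraries from 4632 to 25895, and leaving out 1 library and requiring the other 3 gave 6360 to 7579. The difference in median distance was 10 kb at an FDR of 0.001 or less and 30 kb with anchors 1 bin apart, against 20 kb, and 15 kb without any 1 library. The mean difference in median strength was 5.36, and it was 6.58 at an FDR of 0.001 or less, 3.81 between neighbouring bins and 3.80 to 4.34 without 1 library. The gene share difference (12.7 points) ranged from 10.00 to 11.9 points without 1 BL-HiChIP library, the RNA difference (8.24 points) from 6.32 to 8.83 and the far-anchor difference (10.1 points) from 6.34 to 11.8 without any 1 library of either assay. These mean differences kept their direction under every alternative run, and the far-anchor difference was 2.31 points with gene bodies in place of gene ends, where the libraries differed in sign. Gene starts alone were not run, since the reference gave no strand.

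With the replicate number as a block, 0 shared loops passed the adjusted threshold (3 at an unadjusted p under 0.05) and 0 anchors of shared loops did, against 200 without the block. Deviations of same-numbered libraries from their breed means correlated at 0.462 over shared loops in BL-HiChIP and at 0.0209 over anchors in GRID-seq, and the labels do not say that the numbers mark a pairing. Without the 3 RNAs on most bins of other chromosomes 309 anchors passed, 193 after division by the library's total signal and 243 among anchors with a signal in at least 2 libraries, and 0 did with quantile normalization or a pseudocount of 0.1. These counts are of anchors of shared loops, without the share over all anchors, so they do not compare such anchors with others. Leaving out 1 GRID-seq library gave 0 to 1419 called anchors. Of the 1419 and 1337 calls without MS replicate 1 or 2, 1088 and 938 had a signal of 0 in both LW libraries and thus no spread. Leaving out 1 BL-HiChIP library gave 15 to 221 called loops. For loops the other settings gave 0 adjusted calls, and 0 to 603 at an unadjusted p under 0.05. A lone remaining library was assumed to vary like the other breed's. The counts with 1 library left out are therefore not read as breed differences. The loop counts are of shared loops, without the share over all loops, so they do not compare shared loops with others. Intervals of single calls could not be formed, since the lists hold no contact counts, and an uncalled loop is not shown to be absent.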
